A study of Mus musculus with 6 samples.

Results

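Release of mitochondrial DNA into the cytosol runs through the outer mitochondrial membrane, and 10 genes of that membrane were followed here out of 54146 genes in the count files. They were matched on gene symbol, and each symbol had a single entry. Bax and Bak1 encode the effector pores, Bcl2, Bcl2l1 and Mcl1 their anti-apoptotic partners, Bbc3 and Pmaip1 the BH3-only proteins known as PUMA and NOXA, and Vdac1, Vdac2 and Vdac3 the voltage-dependent anion channels. As background, BAX and BAK form large openings in the outer membrane when BH3-only proteins displace or bypass the anti-apoptotic members, and cytochrome c leaves through them. Mitochondrial DNA can follow through widened BAX and BAK openings or, in stressed cells, through channels built from VDAC subunits. In the cytosol it is sensed by cGAS, which signals through STING.

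Poly A+ RNA of whole kidneys was sequenced from mice of strain B6C3F1/J at an age of 12 weeks (postnatal day 84). There were 3 libraries labelled KspCre Tfam f/f and 3 labelled Tfam f/f. Both labels carry Tfam alleles flanked by loxP sites, so the labelled difference is the Ksp-Cre transgene alone, in which the promoter of kidney-specific cadherin drives Cre recombinase in tubule epithelium and not in the other cells of a kidney. TFAM coats mitochondrial DNA and is needed to transcribe it. Total gene counts were 48899266, 48617981 and 30348281 in libraries labelled KspCre Tfam f/f, against 23921849, 34821537 and 19024208 in those labelled Tfam f/f.

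The targeted gene went against the labels. Tfam stood at 63.1, 63.5 and 61.4 normalized CPM (gene counts scaled to library size) in libraries labelled KspCre Tfam f/f, against 30.3, 33.6 and 23.2 in those labelled Tfam f/f. It was therefore higher where Cre was labelled (log2 fold change 1.11, SE 0.14, edgeR adjusted p = 0.00107). Transcripts of the 13 protein-coding mitochondrial genes made up 11.01% ± 0.0359 of gene counts in libraries labelled KspCre Tfam f/f, against 3.77% ± 1.71 in those labelled Tfam f/f (SD, n = 3 each, two-sided exact permutation p = 0.1, the smallest that 3 against 3 libraries allow). The short names the submitters gave the count files also run against the labels, since those of libraries labelled KspCre Tfam f/f carry a wild-type abbreviation. Groups are therefore named only by label, and a direction given here compares labels whose genotypes are in doubt. The scaling used TMM factors. Each log2 fold change sets the KspCre Tfam f/f label over the Tfam f/f label.

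Promoter sequence was at hand for 7 of the 10 genes, and 3 windows are shown because they belong to the BH3-only gene with the largest difference, to an effector pore that was lower with it, and to the single gene that was higher. Each is the 250 bases before a transcription start in RefSeq (GRCm38.p6), written 5′ to 3′ along the gene, and capitals mark matches to the motifs listed after them. The Bbc3 window lies at chr7:16309333-16309582 on the plus strand, at the most upstream of 3 starts and between exons of a longer GENCODE model. That of Bax lies at chr7:45466899-45467148 on the minus strand, and that of Vdac1 at chr11:52360601-52360850 on the plus strand, the upstream of 2 starts.
Bbc3: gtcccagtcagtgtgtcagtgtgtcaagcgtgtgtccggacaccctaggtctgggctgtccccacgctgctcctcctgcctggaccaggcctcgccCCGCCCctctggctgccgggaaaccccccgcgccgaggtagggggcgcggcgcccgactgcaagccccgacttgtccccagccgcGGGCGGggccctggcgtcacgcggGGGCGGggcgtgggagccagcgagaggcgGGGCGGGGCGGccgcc
Bax: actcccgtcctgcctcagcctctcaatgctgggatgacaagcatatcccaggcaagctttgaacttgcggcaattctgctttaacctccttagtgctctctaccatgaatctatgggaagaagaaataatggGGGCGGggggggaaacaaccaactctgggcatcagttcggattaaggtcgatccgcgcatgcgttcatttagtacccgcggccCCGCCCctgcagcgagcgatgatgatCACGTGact
Vdac1: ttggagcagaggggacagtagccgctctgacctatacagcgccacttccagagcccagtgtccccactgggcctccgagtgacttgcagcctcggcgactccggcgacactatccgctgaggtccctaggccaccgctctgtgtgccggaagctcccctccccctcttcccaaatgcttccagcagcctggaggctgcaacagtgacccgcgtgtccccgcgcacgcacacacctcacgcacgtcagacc

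The Bbc3 window was 76.4% G and C with 27 CpG pairs, the Bax window 54.0% with 14, and the Vdac1 window 65.2% with 17, beside medians of 52.4% and 6 over all 32851 windows. Both strands were searched for 6 motifs. The GC box GGGCGG, which SP1 can bind, was found 5 times before Bbc3, where 2 of the matches overlap, 2 times before Bax and 0 times in this window of Vdac1. It occurs in 32.7% of all windows. At the other starts in the table, it was found 1 and 7 times before Bbc3, 3 times before Vdac1, 7 times before Bcl2, 1 time before Mcl1 and 0 times before Bak1 and Bcl2l1. The E-box CACGTG was found 1 time in the 3 windows shown, next to the Bax start, and 1 time before another start of Bbc3, and it occurs in 6.02% of all windows. None of these 3 windows held an exact match to the NRF1 motif (3.74% of all windows), the ATF4 motif TGATGNAA (3.45%), the cAMP response element TGACGTCA (1.55%) or the p53 site (0.0639%). No mismatch was allowed, so a p53 site that departs from the searched pattern at any base would be missed. The absence of a match is therefore not the absence of a p53 site. A match is a description of letters and not a bound site.

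Of the 10 genes, 8 passed the test (edgeR quasi-likelihood test, Benjamini-Hochberg adjusted p below 0.05 over 17308 genes), 7 of them lower and 1 higher in libraries labelled KspCre Tfam f/f. All 10 had enough counts to be tested. The background is wide, since 46.2% of all tested genes passed, 24.9% as lower and 21.3% as higher (4310 and 3690 genes, or 8519 and 1680 when libraries were scaled by total counts alone). The groups did not overlap for 9 of the 10 genes, against 61.9% of tested genes; for 8 all libraries labelled KspCre Tfam f/f were below (32.1% of tested genes) and for 1 above (29.8%). The median log2 fold change was -0.38 over the 10 genes and -0.03 over all tested genes. Bbc3, Bak1, Pmaip1 and Bax differed by more than 1 on the log2 scale, as did 23.9% of tested genes. Without replicate 1, 2 or 3 of the KspCre Tfam f/f label, only Bbc3, Bak1 and Bax remained called, and the count of lower genes fell to 3 each time. In these 3 fits 2321, 2276 and 2299 of all tested genes were higher, and 2822 and 2873 were lower without replicate 2 and 3.

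**Figure D1:**
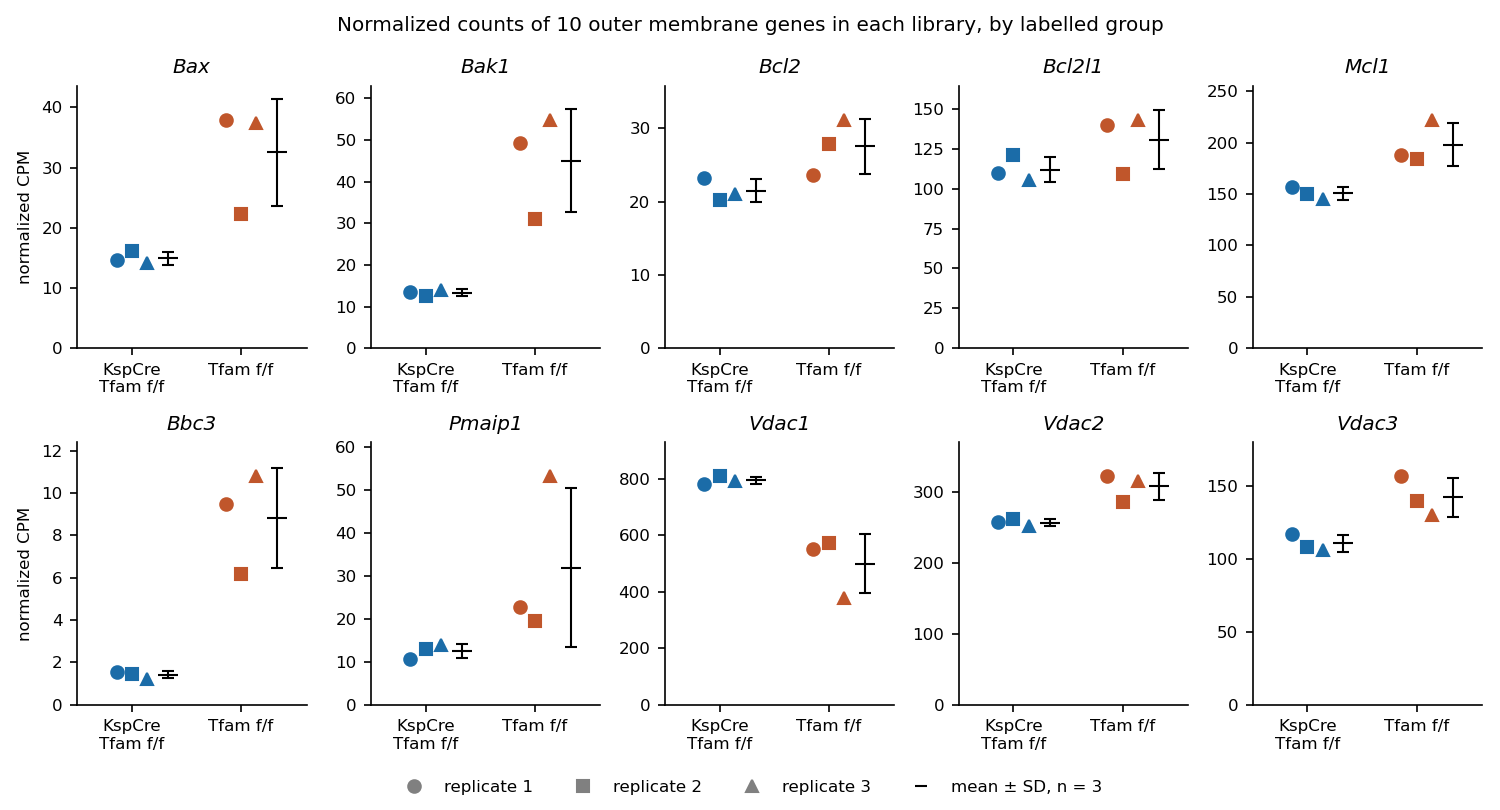
Normalized CPM of each gene in each of the 6 libraries, with the libraries labelled KspCre Tfam f/f on the left of every panel and those labelled Tfam f/f on the right, and the mean ± SD beside each group of 3. The left groups are tight, with Bbc3 between 1.22 and 1.55, while the right groups spread widely, with Pmaip1 between 19.6 and 53.2.

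Both effector pores were lower in libraries labelled KspCre Tfam f/f. Bak1 (ENSMUSG00000057789.13, chromosome 17, 27019810 to 27029009, minus strand, mm10) had 13.5, 12.5 and 14.1 CPM in libraries labelled KspCre Tfam f/f, against 49.2, 31.1 and 54.8 in those labelled Tfam f/f. Every library of the first label was below every library of the second, and replicate 2 of the Tfam f/f label was the closest. The mean was 13.3 ± 0.801 CPM under the KspCre Tfam f/f label and 45.0 ± 12.4 CPM under the Tfam f/f label (SD, n = 3 each), a 3.37-fold lower level (log2 fold change -1.75, SE 0.20, edgeR adjusted p = 0.000853). Bax (ENSMUSG00000003873.11, chromosome 7, 45461697 to 45466898, minus strand) had 14.6, 16.1 and 14.1 CPM in libraries labelled KspCre Tfam f/f, against 37.9, 22.3 and 37.4 in those labelled Tfam f/f. Again the groups did not overlap and replicate 2 of the Tfam f/f label stood nearest. Bax was 2.17-fold lower (log2 fold change -1.12, SE 0.20, edgeR adjusted p = 0.00444). Both calls held under all 16 alternatives tried. A neighbour on the opposite strand, Ggnbp1, overlaps 25.5% of the exon bases of Bak1, and it was higher, with 38.7, 36.9 and 34.3 CPM in libraries labelled KspCre Tfam f/f, against 28.3, 28.1 and 23.7 in those labelled Tfam f/f (log2 fold change 0.46, edgeR adjusted p = 0.0108). In Bax, 12.2% of exon bases overlap Gm45808 on the same strand, which was not analysed here. The strand setting of the counting is not given in the sources used here, so these shared bases are uncertain.

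Among the BH3-only genes, Bbc3 showed the largest difference of the 10. It is a direct target gene of p53, and its product PUMA binds all anti-apoptotic members. Bbc3 (ENSMUSG00000002083.13, chromosome 7, 16308393 to 16318205, plus strand) had 1.55, 1.43 and 1.22 CPM in libraries labelled KspCre Tfam f/f, against 9.47, 6.19 and 10.8 in those labelled Tfam f/f. These rest on 66, 59 and 32 counts in libraries labelled KspCre Tfam f/f, against 258, 235 and 257 in those labelled Tfam f/f. The groups lay far apart, and Bbc3 was 6.23-fold lower (log2 fold change -2.64, SE 0.25, edgeR adjusted p = 0.000387), a call that held under all 16 alternatives. Pmaip1 (ENSMUSG00000024521.7, chromosome 18, 66458533 to 66465565, plus strand) encodes NOXA, which binds chiefly MCL1. It had 10.6, 12.97 and 13.8 CPM in libraries labelled KspCre Tfam f/f, against 22.8, 19.6 and 53.2 in those labelled Tfam f/f. Replicate 3 of the Tfam f/f label stood far above its 2 partners, so the spread there was 58.2% of the mean. Pmaip1 was 2.55-fold lower (log2 fold change -1.35, SE 0.37, edgeR adjusted p = 0.0210), or 1.71-fold lower without that library. Its edgeR adjusted p was 0.0775, 0.0655 and 0.0571 without replicate 1, 2 and 3 of the KspCre Tfam f/f label, and 0.103 with no filter on low counts.

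The anti-apoptotic genes differed far less. Mcl1 (ENSMUSG00000038612.16, chromosome 3, 95658788 to 95663176, plus strand), a short-lived guardian against BAK, had 157, 150.3 and 145 CPM in libraries labelled KspCre Tfam f/f, against 188, 184 and 222 in those labelled Tfam f/f. It was 1.31-fold lower (log2 fold change -0.39, SE 0.12, edgeR adjusted p = 0.0303). Bcl2 (ENSMUSG00000057329.7, chromosome 1, 106538178 to 106714274, minus strand), the founding member of the family, had 23.2, 20.2 and 20.98 CPM in libraries labelled KspCre Tfam f/f, against 23.7, 27.9 and 31.1 in those labelled Tfam f/f. Its groups nearly touched, and it was 1.28-fold lower (log2 fold change -0.36, SE 0.12, edgeR adjusted p = 0.0467). Bcl2l1 (ENSMUSG00000007659.18, chromosome 2, 152780668 to 152831728, minus strand) encodes BCL-XL. It had 109.6, 121 and 105 CPM in libraries labelled KspCre Tfam f/f, against 139.8, 109.5 and 143 in those labelled Tfam f/f, so the groups overlapped, and it did not pass the test (log2 fold change -0.22, 95% interval -0.53 to 0.08, edgeR adjusted p = 0.196). The call of Bcl2 was lost without any library other than replicate 1 of the Tfam f/f label, with edgeR adjusted p from 0.0781 to 0.165 in those 5 fits, and likewise with DESeq2 (adjusted p = 0.0647), limma voom (0.0543) or no filter on low counts (0.0618). The call of Mcl1 was lost without replicate 1, 2 or 3 of the KspCre Tfam f/f label (edgeR adjusted p = 0.0905, 0.117 and 0.137) or a filter (0.0577), while Bcl2l1 passed without replicate 2 of the Tfam f/f label (0.0291) and with scaling by total counts (0.00746). In Bcl2, 6.09% of exon bases overlap the antisense gene D630008O14Rik and are uncertain.

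The VDAC genes split in direction. Vdac1 (ENSMUSG00000020402.11, chromosome 11, 52360860 to 52389397, plus strand), the most abundant channel of the outer membrane, had 781, 808 and 793 CPM in libraries labelled KspCre Tfam f/f, against 549.7, 571 and 378 in those labelled Tfam f/f. All 3 of the first label were higher, and replicate 3 of the Tfam f/f label was far below its partners. Vdac1 was 1.59-fold higher (log2 fold change 0.67, SE 0.20, edgeR adjusted p = 0.0276). Vdac3 (ENSMUSG00000008892.12, chromosome 8, 22577075 to 22593813, minus strand), whose role is the least settled of these channels, had 117, 108 and 106 CPM in libraries labelled KspCre Tfam f/f, against 156, 139 and 130.0 in those labelled Tfam f/f. It was 1.28-fold lower (log2 fold change -0.36, SE 0.11, edgeR adjusted p = 0.0301). Vdac2 (ENSMUSG00000021771.14, chromosome 14, 21825238 to 21845879, plus strand), which holds BAK at the membrane, had 257, 261 and 252 CPM in libraries labelled KspCre Tfam f/f, against 322, 286 and 316 in those labelled Tfam f/f. Its groups did not overlap, yet it did not pass the test (log2 fold change -0.26, 95% interval -0.55 to 0.02, edgeR adjusted p = 0.114). It passed with DESeq2 (adjusted p = 0.0491) and with scaling by total counts (0.00346).

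Both VDAC calls were fragile. Vdac1 had edgeR adjusted p of 0.0811, 0.0898 and 0.0858 without replicate 1, 2 and 3 of the KspCre Tfam f/f label and 0.0598 without replicate 1 of the Tfam f/f label. Scaled by total counts alone, its log2 fold change was 0.25 (edgeR adjusted p = 0.214), where the median of all tested genes moved to -0.46. Vdac3 lost its call without replicate 1, 2 or 3 of the KspCre Tfam f/f label (edgeR adjusted p = 0.0770, 0.129 and 0.141), replicate 1 of the Tfam f/f label (0.0923) or a filter on low counts (0.0668). Stretches of at least 150 bases at 97% identity are shared by 7.70% of Vdac2 transcript bases with Gm7832 and by 3.69% of Vdac3 with Gm7591 and the pseudogene Vdac3-ps1, so reads there are uncertain. The other 8 genes shared such stretches only with a gene that overlaps them, or with none.

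**Figure D2:**
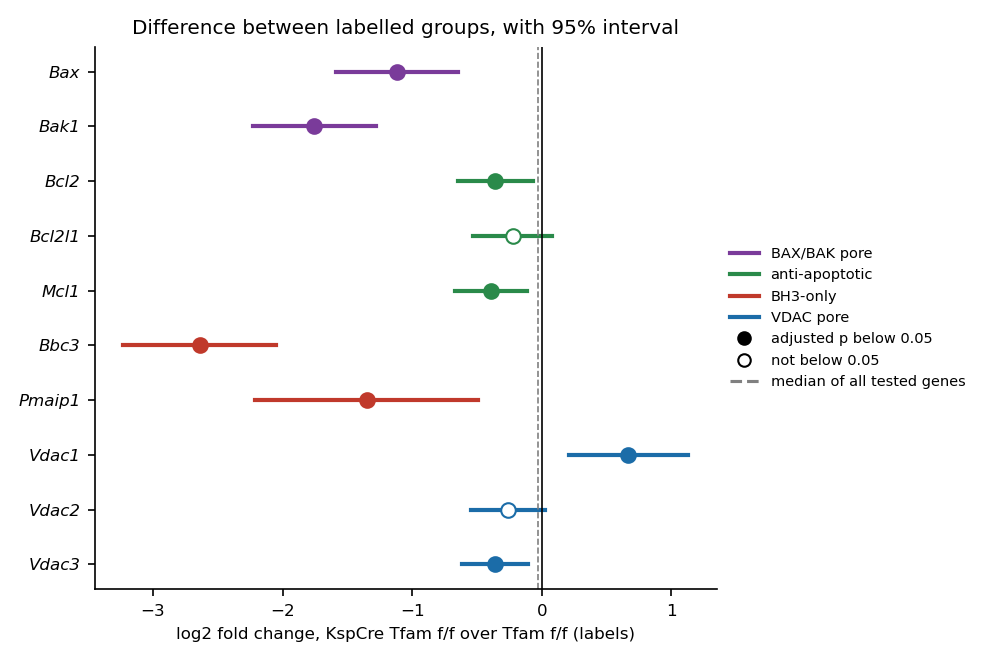
Log2 fold change of each gene, libraries labelled KspCre Tfam f/f over those labelled Tfam f/f, with its 95% interval, coloured by role; filled points passed the edgeR test and the dashed line is the median of all tested genes at -0.03. Bbc3 at -2.64 and Bak1 at -1.75 lie farthest left, and Vdac1 at 0.67 is the single gene right of 0.

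Set against each other within a library, the effector pores were low relative to the anti-apoptotic genes in libraries labelled KspCre Tfam f/f. On the scale of CPM per kilobase of merged exons, Bax plus Bak1 amounted to 20.6, 21.2 and 21.9 for every 100 of Bcl2, Bcl2l1 and Mcl1 summed in those libraries, against 50.5, 33.5 and 46.8 in those labelled Tfam f/f. The average was 21.2 ± 0.645 under the KspCre Tfam f/f label and 43.6 ± 8.93 under the Tfam f/f label (SD, n = 3 each). Bbc3 amounted to 1.01, 0.925 and 0.850 per 100 in libraries labelled KspCre Tfam f/f, against 5.07, 3.61 and 5.11 in those labelled Tfam f/f. No test was run on these ratios, because the genes were chosen with earlier results known. Mcl1 supplied 63.4%, 60.6% and 62.6% of it in libraries labelled KspCre Tfam f/f, against 62.4%, 66.6% and 65.3% in those labelled Tfam f/f, and these ranges overlap. Bcl2l1 supplied 33.1%, 36.4% and 34.0% in libraries labelled KspCre Tfam f/f, against 34.65%, 29.6% and 31.3% in those labelled Tfam f/f, and Bcl2 3.05% to 3.51% against 2.94% to 3.77% of it.

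The make-up of the VDAC sum did not overlap between the labels. Vdac1 supplied 79.8%, 80.5% and 80.7% of the VDAC level per kilobase in libraries labelled KspCre Tfam f/f, against 68.55%, 71.8% and 61.5% in those labelled Tfam f/f. The summed level was 373.6, 383 and 375 CPM per kilobase in libraries labelled KspCre Tfam f/f, against 306, 303.5 and 234 in those labelled Tfam f/f. Unlike the shares, this sum depends on the TMM scaling, and it was not computed with total counts alone. With that scaling the log2 fold changes were 0.25 for Vdac1, -0.70 for Vdac2 and -0.79 for Vdac3, so a higher sum is not established. Replicate 3 of the Tfam f/f label had the lowest sum and the lowest Vdac1 share. With the length of the principal transcript in place of merged exons, an alternative chosen after seeing the data, the mean Vdac1 share was 64.85% under the KspCre Tfam f/f label and 48.1% under the Tfam f/f label. The shares depend on the length used, and with each length Vdac1 supplied more under the KspCre Tfam f/f label. That direction follows from Vdac1 being higher and Vdac2 and Vdac3 lower in all libraries of that label. The choice of length is therefore no separate check on it.

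**Figure D3:**
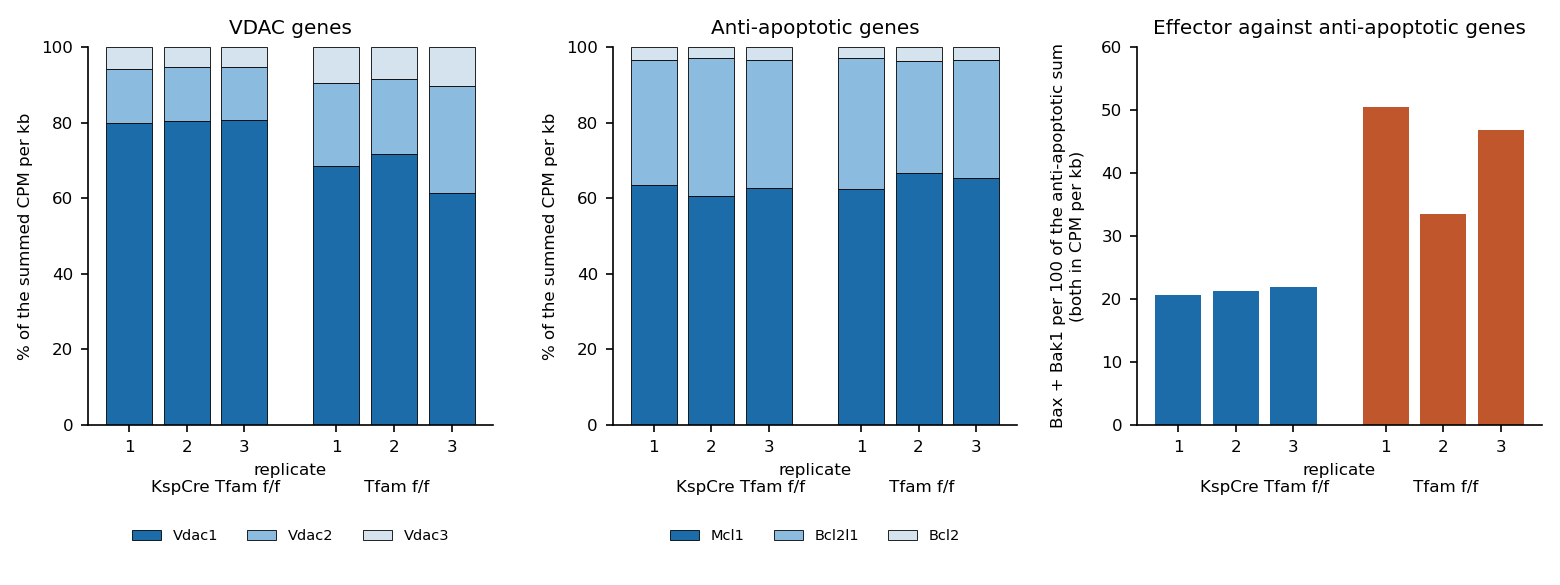
Left and middle, share of each gene in the summed CPM per kilobase of the 3 VDAC genes and of the 3 anti-apoptotic genes in each library, libraries labelled KspCre Tfam f/f on the left; right, Bax plus Bak1 per 100 of the anti-apoptotic sum. Vdac1 supplies about 80.3% on the left against 67.3% on the right, and the right-hand bars stand at 20.6 to 21.9 against 33.5 to 50.5.

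Levels per kilobase spanned a wide range among the 10 genes. Among libraries labelled KspCre Tfam f/f the order was Vdac1 (303 CPM per kilobase), Vdac2 (53.8), Mcl1 (44.1), Bcl2l1 (24.4), Vdac3 (20.4), Bax (9.48), Bak1 (5.54), Pmaip1 (4.57), Bcl2 (2.35) and Bbc3 (0.659), and no neighbours in that order had overlapping ranges. In those labelled Tfam f/f the order was Vdac1 (191), Vdac2 (64.5), Mcl1 (57.9), Bcl2l1 (28.5), Vdac3 (26.2), Bax (20.6), Bak1 (18.7), Pmaip1 (11.7), Bbc3 (4.15) and Bcl2 (3.01). There, Vdac2 and Mcl1 overlapped, each neighbouring pair from Bcl2l1 down to Pmaip1 overlapped, and so did Bbc3 and Bcl2. Bcl2 was thus above Bbc3 in every library labelled KspCre Tfam f/f and was not separated from it in those labelled Tfam f/f. With principal transcript length, Vdac3 stood above Mcl1 under both labels, and the ranges of Mcl1 and Bcl2l1 overlapped under both.

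The 3 replicates of the Tfam f/f label departed from the other label to unequal extents. For 8 of the 10 genes, replicate 2 of that label lay nearest to the mean of libraries labelled KspCre Tfam f/f on the log2(CPM + 0.5) scale. The exceptions were Bcl2, where replicate 1 was nearest, and Vdac3, where replicate 3 was. Replicate 2 was also nearest for 60.02% of all tested genes and 73.5% of called genes, so this order is shared with the rest of the transcriptome. Replicate 3 was farthest for 7 of the 10 genes, against 58.0% of all tested genes. Within libraries labelled KspCre Tfam f/f the coefficient of variation of the 10 genes was 1.69% to 13.2%, and within those labelled Tfam f/f it was 6.24% to 58.2%.

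Markers of kidney cells moved with these results, and in whole kidney fewer cells of a type and less RNA per cell cannot be told apart. The summed level of 10 proximal tubule markers was 50540, 52910 and 51500 CPM in libraries labelled KspCre Tfam f/f, against 9454, 15920 and 3570 in those labelled Tfam f/f. The sum of 5 injured tubule markers, all lower, was 138, 140.3 and 139 CPM in libraries labelled KspCre Tfam f/f, against 1658, 675 and 2510 in those labelled Tfam f/f. For 8 macrophage markers, 7 of them lower and Csf1r not called, it was 298, 248 and 244 CPM in libraries labelled KspCre Tfam f/f, against 769, 405 and 1298 in those labelled Tfam f/f. For 6 T and NK cell markers, 2 of them lower, it was 7.00, 7.59 and 5.46 CPM in libraries labelled KspCre Tfam f/f, against 16.1, 12.99 and 28.9 in those labelled Tfam f/f. In these sums replicate 2 of the Tfam f/f label was nearest to the other label and replicate 3 farthest. Of the 10 genes, Bax, Bcl2, Vdac2 and Vdac3 departed from that order. It was common in the transcriptome, since replicate 2 was nearest for 73.5% and replicate 3 farthest for 68.8% of all called genes. Single genes weighed heavily in the marker sums. Kap averaged 26380 CPM under the KspCre Tfam f/f label and 2715 under the Tfam f/f label. Among macrophage markers Csf1r leaned higher (log2 fold change 0.32). Cd74 of that list, named after its values were seen, averaged 124 CPM under the KspCre Tfam f/f label and 493 under the Tfam f/f label. Krt8, an injured tubule marker, averaged 109 and 264 CPM. It made up most of that sum under the KspCre Tfam f/f label, and other markers did under the Tfam f/f label. The 2 lower T and NK markers, Lck and Cd4, averaged 1.76 and 1.26 CPM under the KspCre Tfam f/f label. Under the Tfam f/f label they averaged 8.58 and 5.74 CPM and made up most of that sum. The other 4 were not called, and of these Cd8a leaned higher (log2 fold change 0.36). Cd4 and Cd8a are named after their values were seen. Lower calls were also made for 2 of 4 tested B and plasma cell markers and 2 of 2 tested neutrophil markers, with Mpo at 0 in every library. Of all tested genes, 24.9% were called lower. With no filter on low counts, 3 macrophage and 3 injured tubule markers were called. The T and NK count was 4 without replicate 2 of the Tfam f/f label. The B and plasma count was 1 without replicate 1 or 3 of the Tfam f/f label or replicate 1 or 2 of the KspCre Tfam f/f label, and the neutrophil count was 0 or 1 without any library other than replicate 2 of the Tfam f/f label. The part of these cell types in the differences of the 10 genes was not tested.

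Higher and lower calls in the other marker lists were 9 and 0 of 10 for proximal tubule, 3 and 0 of 5 for thick ascending limb, 3 and 1 of 5 for distal convoluted and connecting tubule, 0 and 3 of 5 for principal cells, 4 and 1 of 5 for intercalated cells, 3 and 0 of 5 for podocytes, 1 and 0 of 5 for endothelium and 1 and 1 of 5 for mural cells and fibroblasts. The shares over all tested genes were 21.3% higher and 24.9% lower. The number called for proximal tubule was 1 without replicate 1 of the Tfam f/f label, and 3 without any 1 library of the KspCre Tfam f/f label or with no filter. In the same 4 left-out fits it was 2 for the distal list, and without replicate 2 of the Tfam f/f label it was 5 for thick ascending limb and 5 for endothelium. The marker with the smallest p in its list was lower for Krt18 (13.3-fold, injured tubule), Cd68 (4.09-fold, macrophage), Lck (4.84-fold, T and NK), Jchain (3.48-fold, plasma cell), S100a9 (6.13-fold, neutrophil), Trpv5 (4.62-fold, distal) and Hsd11b2 (1.74-fold, principal cell). It was higher for Kap (9.72-fold, proximal tubule), Slc4a1 (9.07-fold, intercalated), Cldn16 (2.92-fold, thick limb), Myh11 (2.04-fold, mural) and Ehd3 (1.88-fold, endothelium), and S100a9 lost its call in 4 alternatives. Trpv5 ran against its list, as the only lower marker beside 3 higher ones. The mural and fibroblast list was split, with Myh11 higher and 1 other marker lower.

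Directions were mixed in the rest of the BCL2 family. Of 18 genes 15 were tested, and 4 were higher, 2 lower and 9 not called, with a median log2 fold change of 0.09. Over all tested genes 21.3% were higher and 24.9% lower, with a median of -0.03. Bid, the BH3-only protein that links death receptors to mitochondria, averaged 64.8 ± 5.56 CPM in libraries labelled KspCre Tfam f/f, against 37.8 ± 1.46 in those labelled Tfam f/f (1.72-fold higher, edgeR adjusted p = 0.001). Bnip3, a mitophagy receptor, was 1.68-fold higher (edgeR adjusted p = 0.0161). Its relative Bnip3l was 1.34-fold higher (edgeR adjusted p = 0.0111), but scaled by total counts its log2 fold change was -0.0002364. Bcl2l14 averaged 2.81 ± 0.304 CPM in libraries labelled KspCre Tfam f/f, against 12.0 ± 1.39 in those labelled Tfam f/f (4.27-fold lower, edgeR adjusted p = 0.000194). Bcl2l15 as higher and Bcl2a1a as lower were below 1 CPM in every library and are named after their values were seen. The number called was 3 without replicate 1 of the KspCre Tfam f/f label, where Bnip3 (edgeR adjusted p = 0.0579) and Bnip3l (0.0558) were lost, and 10 without replicate 2 of the Tfam f/f label. Bnip3 was also lost without replicate 2 of the KspCre Tfam f/f label (0.0509) and with scaling by total counts (0.0949).

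Downstream of the pores, 8 of 14 genes of the apoptosome, the caspases and their inhibitors passed the test, 3 as higher and 5 as lower, with a median log2 fold change of -0.30. Among all tested genes 46.2% passed, 21.3% as higher and 24.9% as lower, with a median of -0.03. Birc5, an inhibitor of apoptosis that marks dividing cells, averaged 1.55 ± 0.205 CPM in libraries labelled KspCre Tfam f/f, against 6.58 ± 1.49 in those labelled Tfam f/f (4.23-fold lower, edgeR adjusted p = 0.000794). Birc3, which restrains death receptor signals, was 2.74-fold lower (edgeR adjusted p = 0.0124). Htra2, a protease released through the pores, was 1.41-fold lower (edgeR adjusted p = 0.0119). Apaf1 as lower and Aifm1, Casp9 and Cycs as higher are named after their values were seen. Cycs, the gene of cytochrome c, had 275, 280.0 and 297 CPM in libraries labelled KspCre Tfam f/f, against 202, 225 and 136 in those labelled Tfam f/f. The count of called genes was 4, 2 and 3 without replicate 1, 2 and 3 of the KspCre Tfam f/f label. Htra2 was lost without replicate 1 or 2 of it (edgeR adjusted p = 0.0519 and 0.0512) and Birc3 without replicate 2 (0.0506) or with no filter on low counts (0.0623).

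In the death receptor branch, 3 of 7 genes passed, 1 as higher and 2 as lower, with a median log2 fold change of -0.04. The share of all tested genes that passed was 46.2%, and their median was -0.03. Cflar, the caspase 8 inhibitor FLIP, averaged 206 ± 2.14 CPM in libraries labelled KspCre Tfam f/f, against 104.0 ± 22.5 in those labelled Tfam f/f (1.98-fold higher, edgeR adjusted p = 0.00288). Tnfrsf10b, the mouse TRAIL receptor, had 2.23, 2.80 and 3.13 CPM in libraries labelled KspCre Tfam f/f, against 12.45, 12.35 and 15.3 in those labelled Tfam f/f. It was 4.93-fold lower (edgeR adjusted p = 0.000194), and the TNF receptor gene Tnfrsf1a was 1.69-fold lower (edgeR adjusted p = 0.00335). Scaled by total counts, 6 genes of the branch were called.

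**Figure D4:**
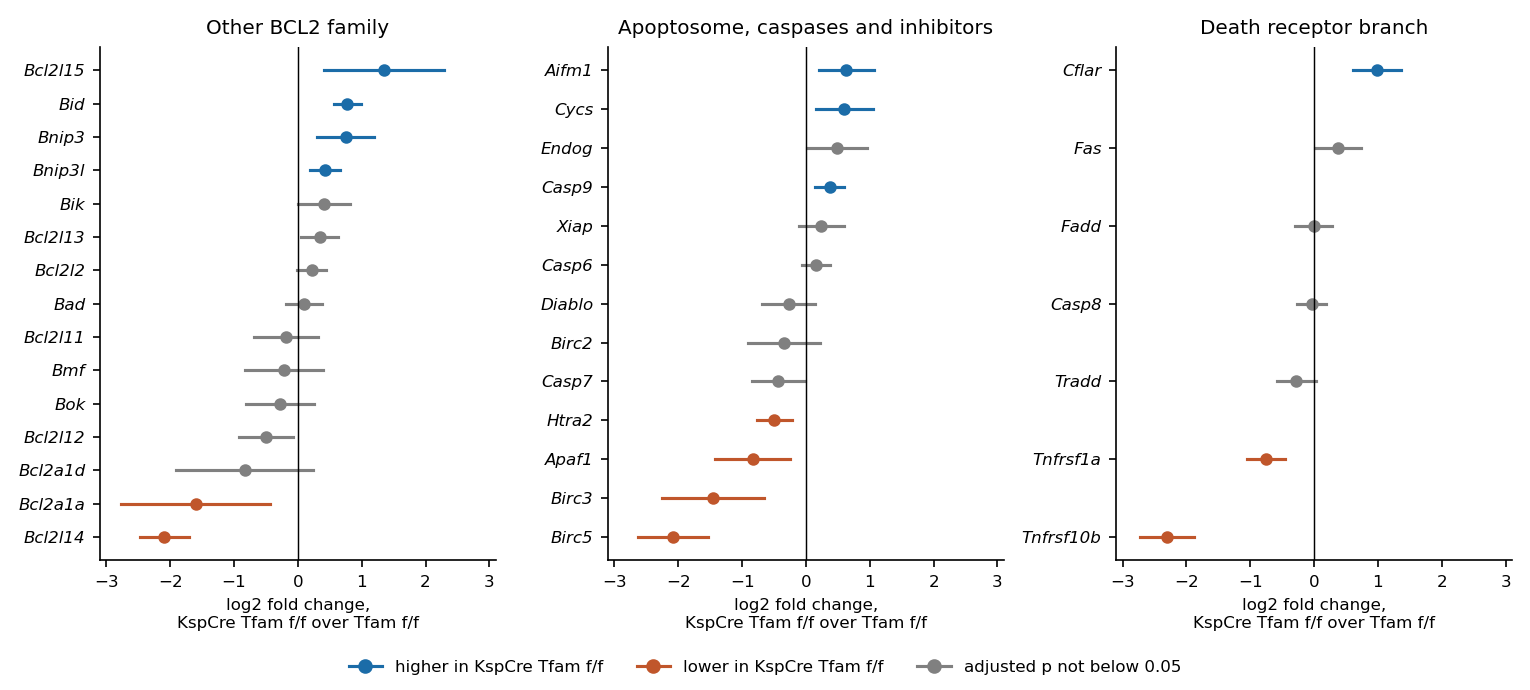
Log2 fold change with 95% interval for genes reported here of the other BCL2 family, of the apoptosome, caspases and inhibitors, and of the death receptor branch, libraries labelled KspCre Tfam f/f over those labelled Tfam f/f. Bcl2l14 at -2.09, Birc5 at -2.08 and Tnfrsf10b at -2.30 lie lowest in their panels, and grey genes did not pass the edgeR test.

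Of 18 tested genes that import proteins across the outer membrane or bind VDAC, 2 were higher, 3 lower and 13 not called, with a median log2 fold change of -0.07. Beside them, 46.2% of all tested genes were called, with a median of -0.03. Hk2 encodes hexokinase 2, which docks on VDAC1. It had 0.658, 0.556 and 0.954 CPM in libraries labelled KspCre Tfam f/f, against 22.7, 16.96 and 46.7 in those labelled Tfam f/f. This 40.7-fold lower level (log2 fold change -5.35, SE 0.47, edgeR adjusted p = 0.000329) was the largest difference in any of the pathway lists. Hk1, the other hexokinase that docks there, was 2.12-fold lower (edgeR adjusted p = 0.000935). The import channel gene Tomm40 was 1.47-fold lower and the import receptor gene Tomm70a 1.46-fold higher (edgeR adjusted p = 0.00917 and 0.00684), and Tomm7, also higher, is named after its values were seen. The call of Tomm70a was lost with scaling by total counts (0.333), where 13 genes of the list were called, and 9 were with upper quartile factors.

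A list of transcription regulators of these genes, which also holds Cdkn1a as a p53 target, had 4 of 8 tested genes lower and 1 higher, Foxo3, which is named after its values were seen. The median log2 fold change was -0.49, against -0.03 over all tested genes, of which 24.9% were lower and 21.3% higher. Cdkn1a, the p53 target that encodes p21, had 6.88, 6.14 and 4.46 CPM in libraries labelled KspCre Tfam f/f, against 102, 78.1 and 96.99 in those labelled Tfam f/f (15.7-fold lower, edgeR adjusted p = 3.07e-05). Ddit3, the stress factor CHOP, had 9.21, 11.1 and 9.42 CPM in libraries labelled KspCre Tfam f/f, against 137, 108 and 98.3 in those labelled Tfam f/f (11.5-fold lower, edgeR adjusted p = 2.31e-05). Atf4, which lies upstream of it, was 2.51-fold lower (edgeR adjusted p = 0.000343), and Trp53, the gene of p53, 1.58-fold lower (edgeR adjusted p = 0.00896). Mdm2, Mdm4 and Trp63, listed as p53 family and regulators, were not called (log2 fold change -0.20, -0.32 and 0.19). They are named after their values were seen. Among 6 genes of the turnover of MCL1, VDAC and BAX proteins, 2 were higher and 0 lower. Pink1, the kinase that marks damaged mitochondria, was 1.91-fold higher (edgeR adjusted p = 0.00764). Usp9x, a deubiquitinase that stabilizes MCL1, was 1.64-fold higher (edgeR adjusted p = 0.0235). The call of Usp9x was lost without replicate 1 of the Tfam f/f label (0.0841) or replicate 1, 2 or 3 of the KspCre Tfam f/f label (0.0680, 0.0689 and 0.0668), and with scaling by total counts (0.169). The turnover count was 1 in each of those 4 left-out fits, and it was 4 without replicate 2 of the Tfam f/f label.

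Across the 6 libraries, Bbc3 and Bak1 followed patterns shared by much of the transcriptome. Among 10011 genes with a mean of at least 10 CPM, those most like Bbc3 in log2 CPM were Plaur, Ckap4 and Apoe, with Pearson r of 0.9998, 0.9995 and 0.9994. Those most like Bak1 were Litaf, Fam53b and Tpcn2, with r of 0.9991, 0.999 and 0.9989. All 6 were lower in libraries labelled KspCre Tfam f/f, with log2 fold changes from -3.46 for Plaur to -0.79 for Fam53b. The 6 points fall into the 2 labelled groups and share depth and scaling, and 2041 genes had r above 0.9 with Bbc3 and 2119 with Bak1, so these values describe the libraries and carry no test.

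**Figure D5:**
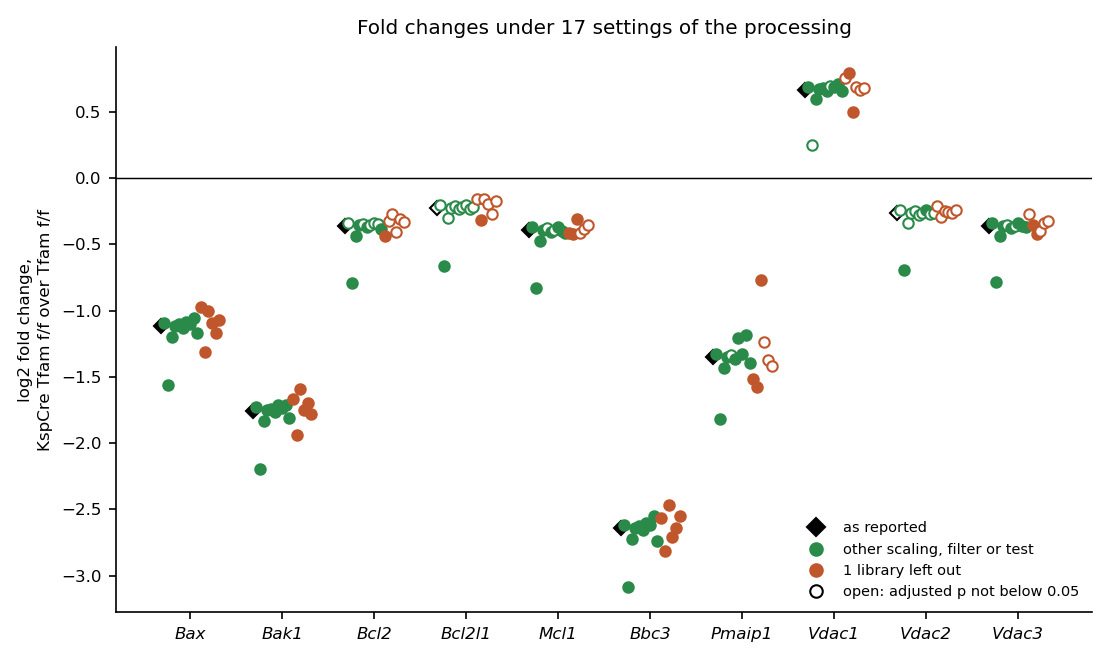
Log2 fold change of each gene as reported (diamond), under other scaling, filters or tests (green) and with each library left out in turn (orange); open symbols mark an adjusted p not below 0.05. Bbc3, Bak1 and Bax stay filled and below -0.97 under every setting, no gene crosses 0, and Bcl2, Mcl1, Pmaip1, Vdac1 and Vdac3 turn open in several settings.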

How the data were processed

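Whole-kidney RNA was read in 6 libraries. Libraries were poly A+ selected and strand-specific (dUTP), per the labels' protocols. The authors deposited raw read counts per gene, not normalized. FastQC, Trim Galore, STAR 2.4.1d, HTSeq 0.11.0 and build mm10 are named per the submitters' processing notes, with order, settings, annotation and counting strand not given in the sources used here. The 5 summary lines of each file held 16.0% to 20.4% of its counts and were left out. Positions come from GENCODE M21, which held 54079 of 54146 identifiers, similarity from blastn 2.17.0, and promoters from RefSeq.

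The test was run on all 6 libraries with edgeR 4.0.16 under R 4.3.3 (filterByExpr with minimum count 10 and minimum total 15, leaving 17308 genes; TMM; robust glmQLFit and glmQLFTest; Benjamini-Hochberg adjustment over all genes, called below 0.05). Alternatives were other scalings and filters, DESeq2 1.42.0, limma 3.58.1 voom, thinning, a replicate block and leaving out single libraries. Tested on simulated counts of this comparison (17067 genes), the procedure recovered 29.9% of 67 genes changed 1.5-fold, 71.6% of 67 changed 2-fold and 100% of 66 changed 4-fold, with 8 false calls. Only these genes were changed there, a far smaller share than the 46.2% called in the data. The adjustment for multiple testing was therefore stricter in the simulation, and its recovery does not measure the power of the test on these data.

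The 10 genes and all lists were chosen with earlier results of these data known. Besides the 10, the text names Tfam, up to 4 called genes with the smallest p per pathway list, the marker with the smallest p per marker list, and the 3 genes most like each of the 2 most changed members. Some genes that this rule would name are not reported here. Whether the libraries of a group came from different animals is not stated by the labels; a p-value therefore reflects the spread among these libraries only, and that spread may be technical. Libraries of a group differed beyond sampling noise (chi-square over degrees of freedom: 7.09 to 11.7 under the KspCre Tfam f/f label and 63.1 to 164 under the Tfam f/f label), so none was treated as a duplicate.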

Additional observations from a re-analysis of the deposited data

How the results depend on the processing

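No gene of the 10 changed direction under any of the 16 alternatives, and Bax, Bak1 and Bbc3 kept their calls in all of them. Replicate numbers showed no sign of pairing libraries, since same-numbered libraries had correlations of -0.219, -0.0719 and -0.065 of their deviations. With 3 libraries per group these values cannot exclude pairing. With the replicate number as a block, Bcl2 (log2 fold change -0.352, and so for each value in brackets here), Mcl1 (-0.389), Vdac1 (0.692) and Vdac3 (-0.359) lost their calls, leaving 4 lower and 0 higher. Without a filter on low counts Bcl2 (-0.345), Mcl1 (-0.38), Pmaip1 (-1.332) and Vdac3 (-0.35) lost theirs, leaving 3 lower. Scaling by total counts moved the median of all genes by over 0.1, called Bcl2l1 (-0.66) and Vdac2 (-0.695), lost Vdac1 (0.254, so 0 higher), turned Bnip3l to -0.0002364, and gave 1680 higher and 8519 lower genes, 6 death receptor and 13 import genes (9 with upper quartile factors). DESeq2 factors (-0.336), the DESeq2 test (-0.335) and voom (-0.347) lost Bcl2, and the DESeq2 test called Vdac2 (-0.241). The cause was not tested. Over the 6 left-out libraries, log2 fold changes ran from -1.31 to -0.97 for Bax, -1.94 to -1.59 for Bak1, -0.44 to -0.27 for Bcl2, -0.31 to -0.15 for Bcl2l1, -0.42 to -0.31 for Mcl1, -2.82 to -2.47 for Bbc3, -1.58 to -0.77 for Pmaip1, 0.50 to 0.80 for Vdac1, -0.29 to -0.21 for Vdac2 and -0.42 to -0.27 for Vdac3. Counts ran from 3 to 7 lower and 0 to 1 higher of the 10, 2276 to 4652 higher and 2822 to 4942 lower of all genes, 3 to 10 in the other BCL2 family, 2 to 10 in the apoptosome list, and 1 to 4 in the turnover list. Without length scaling, Bax plus Bak1 per 100 was 9.96 and 21.6, the Vdac1 share 68.4% and 52.2% and the Mcl1 share 53.02% and 55.6%, under the KspCre Tfam f/f and the Tfam f/f label; with principal transcript length, added after seeing the data, they were 25.2 and 49.5, 64.85% and 48.1%, and 48.6% and 51.4%. Depth limits Bbc3 most, with 32 counts in its lowest library. For Bcl2l1 and Vdac2, the 95% intervals of -0.53 to 0.08 and -0.55 to 0.02 limit what can be said, since they hold both no difference and a lower level.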
